A study of Mus musculus with 48 samples.

Results

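Oligodendrocytes wrap axons in myelin, and the 33 genes described here mark that lineage, from the precursor cell to the myelin sheath. They were chosen by symbol: each row of the deposited gene-level table whose Ensembl identifier carries one of the 33 names was a member. All 33 were found among 47069 gene rows, each under 1 identifier, and all 33 passed the filter on low counts in every comparison.

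Precursor cells that carry the growth factor receptor PDGFRα and the proteoglycan NG2 (Cspg4) divide throughout the brain. The transcription factors OLIG2, SOX10, NKX2-2 and MYRF take some of them through a short stage marked by the receptor GPR17 to the mature cell, which makes the myelin proteins, the galactolipids of the sheath and the enzymes that feed them. White matter is rich in such cells, so a brain sample that holds more of a fibre tract holds more of their RNA.

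RNA was sequenced from mice with a deletion on chromosome 7, band 7qF3, syntenic to the human region 16p11.2, and from wild-type mice, all on the strain background C57BL/6N:129Sv. Each of 16 animals gave a striatum, a cortex and a cerebellum, so each of the 6 groups of tissue and genotype held 8 libraries, from 4 males and 4 females. Per the animal numbers in the labels, the replicates of a group were separate animals. The 3 deletion groups were deletion striatum, deletion cortex and deletion cerebellum (animals D801 to D804 and D809 to D812), and the 3 wild-type groups were the same tissues of W805 to W808 and W813 to W816. No other allele, agent or treatment is named in the labels, and an age cannot be read from them: the age field holds a date that splits the animals exactly as sex does. Sex and that date cannot be told apart.

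The libraries held 29244745 to 60751792 counts in genes, with a median of 32232112. Genes of the deleted interval gave a check of the labels: 25 of them summed to 1290 to 2206 CPM (counts scaled to library size) in deletion striatum and 2609 to 4519 CPM in wild-type striatum, 1458 to 2650 CPM in deletion cortex and 2981 to 5585 CPM in wild-type cortex, and 1364 to 2342 CPM in deletion cerebellum and 2598 to 4394 CPM in wild-type cerebellum, with no overlap in any tissue. The cerebellum library of deletion animal D809 stood apart. Its 10 cerebellar marker genes averaged 5.96 on the log2 CPM scale, against 7.48 in the cerebellum of wild-type animal W813 and 7.92 to 8.49 in the other 14 cerebellum libraries. The striatal marker mean ran from 3.92 to 8.21 in the striatum libraries and from 2.21 to 7.12 in the cortex libraries. The level of striatal marker RNA was thus uneven in both tissues, and the cause of that was not tested. In 2 striatum libraries, D810 and W813, cortical or thalamic markers averaged more than striatal ones. Values without D809, W813 and D810 are given beside the results that they move. Libraries also differed in the balance of long and short genes. A length score, the median deviation of genes in the top quartile of exon length from their tissue mean minus that of genes in the bottom quartile, ran from −0.78 to 0.71 on the log2 scale in the striatum.

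RefSeq promoters (GRCm38.p6, 250 bases before to 50 after a gene's start) were matched to 24 of the 33 members. The 4 printed here belong to members whose level differed most clearly between brain regions and whose promoter could be shown: Pdgfra and Cspg4, which mark precursors, Nkx2-2, a lineage transcription factor, and Apod, a lipid carrier. Each is 300 bases, given 5′ to 3′ on the strand of the gene. Capitals mark 3 short motifs searched for on both strands: ACAAAG, a core bound by SOX proteins, the E-box CAGCTG, and a further E-box, CATCTG, which reads as CAGATG on the other strand. E-boxes of this kind are bound by basic helix-loop-helix proteins such as OLIG2. The Pdgfra promoter lies at chr5:75152001-75152300 (+), the Cspg4 promoter at chr9:56864854-56865153 (+), the Nkx2-2 promoter at chr2:147186353-147186652 (−) and the Apod promoter at chr16:31314759-31315058 (−).
Pdgfra: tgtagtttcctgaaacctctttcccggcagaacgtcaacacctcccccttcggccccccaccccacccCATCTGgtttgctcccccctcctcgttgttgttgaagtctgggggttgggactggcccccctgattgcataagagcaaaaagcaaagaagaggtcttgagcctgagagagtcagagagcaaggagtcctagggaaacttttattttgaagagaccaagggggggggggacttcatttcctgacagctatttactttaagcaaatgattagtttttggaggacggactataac
Cspg4: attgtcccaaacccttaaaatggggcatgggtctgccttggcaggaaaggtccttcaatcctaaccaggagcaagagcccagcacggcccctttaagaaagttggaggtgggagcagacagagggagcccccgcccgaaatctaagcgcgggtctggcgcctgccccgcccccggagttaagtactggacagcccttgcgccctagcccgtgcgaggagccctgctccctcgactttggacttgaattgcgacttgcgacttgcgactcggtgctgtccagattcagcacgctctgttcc
Nkx2-2: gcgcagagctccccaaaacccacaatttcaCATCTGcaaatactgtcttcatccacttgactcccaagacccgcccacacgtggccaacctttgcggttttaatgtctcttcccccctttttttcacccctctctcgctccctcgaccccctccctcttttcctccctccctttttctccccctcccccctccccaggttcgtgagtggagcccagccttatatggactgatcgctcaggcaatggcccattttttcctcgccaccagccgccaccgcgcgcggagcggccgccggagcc
Apod: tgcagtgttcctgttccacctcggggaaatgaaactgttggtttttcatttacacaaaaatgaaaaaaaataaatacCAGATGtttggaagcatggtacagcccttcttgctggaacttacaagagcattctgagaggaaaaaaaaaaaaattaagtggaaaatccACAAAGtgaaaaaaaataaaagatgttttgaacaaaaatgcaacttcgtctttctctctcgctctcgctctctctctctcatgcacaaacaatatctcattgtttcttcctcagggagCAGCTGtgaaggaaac

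The Apod window held all 3 motifs, the Pdgfra and Nkx2-2 windows held 1 CATCTG each, and none of the 3 was found in the Cspg4 window. ACAAAG occurred in the windows of 8 of the 24 members (Apod, Cnp, Gjb1, Mag, Mobp, Opalin, Plekhb1 and Tspan2), and over all windows in 30.3% of the 33 that belong to members and 18.7% of the 32851 in the table. CATCTG occurred in the windows of 9 members, 27.3% of member windows and 17.2% of all windows, and CAGCTG in those of 4 members, 12.1% of member windows and 16.3% of all windows. The median GC content was 56% in member windows and 52.67% in all windows. A match is a run of letters and does not show that a factor binds there.

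The genes that mark precursors and the genes of the mature cell were distributed differently over the brain. Pdgfra, Cspg4 and Gpr17 were 2.44- to 2.81-fold higher in the striatum than in the cerebellum, and 2.17- to 2.44-fold higher in the cortex than in the cerebellum, over the 2 genotypes, while 18 members in deletion animals, most of them genes of the mature cell, and 10 in wild-type animals were called lower in the cortex than in the cerebellum, where 24.8% and 24.2% of all genes were. The wild-type share was thus near that of all genes. The deletion count fell without the cerebellum library of D809, and the wild-type count without that of W813. Other precursor genes, described below, were mixed for cortex over cerebellum. The chromosome 7 deletion was not followed by a called change in any of the 33 genes in any tissue. Most myelin genes moved up and down together from library to library within a tissue, where the highest of 16 libraries was 1.59- to 17.2-fold above the lowest, depending on the member and tissue.

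Per length of transcript (RPKM, that is CPM per kilobase of exon), Mbp, which encodes myelin basic protein, the protein that compacts the sheath, was the most abundant member. It averaged 349 RPKM in deletion striatum and 366 RPKM in wild-type striatum, 270 RPKM in deletion cortex and 286 RPKM in wild-type cortex, and 449 RPKM in deletion cerebellum and 412 RPKM in wild-type cerebellum. Mobp, a small basic protein of the sheath, averaged 142 RPKM in deletion striatum and 149 RPKM in wild-type striatum. At the low end, Nkx2-2 averaged 1.33 RPKM in deletion cortex and 1.32 RPKM in wild-type cortex, and Cspg4 averaged 0.869 RPKM in deletion cerebellum and 0.872 RPKM in wild-type cerebellum. Of the precursor genes, Gpr17 averaged 17.1 RPKM in deletion striatum and 14.7 RPKM in wild-type striatum, and Pdgfra 5.63 RPKM in deletion striatum and 5.88 RPKM in wild-type striatum.

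**Figure D1:**
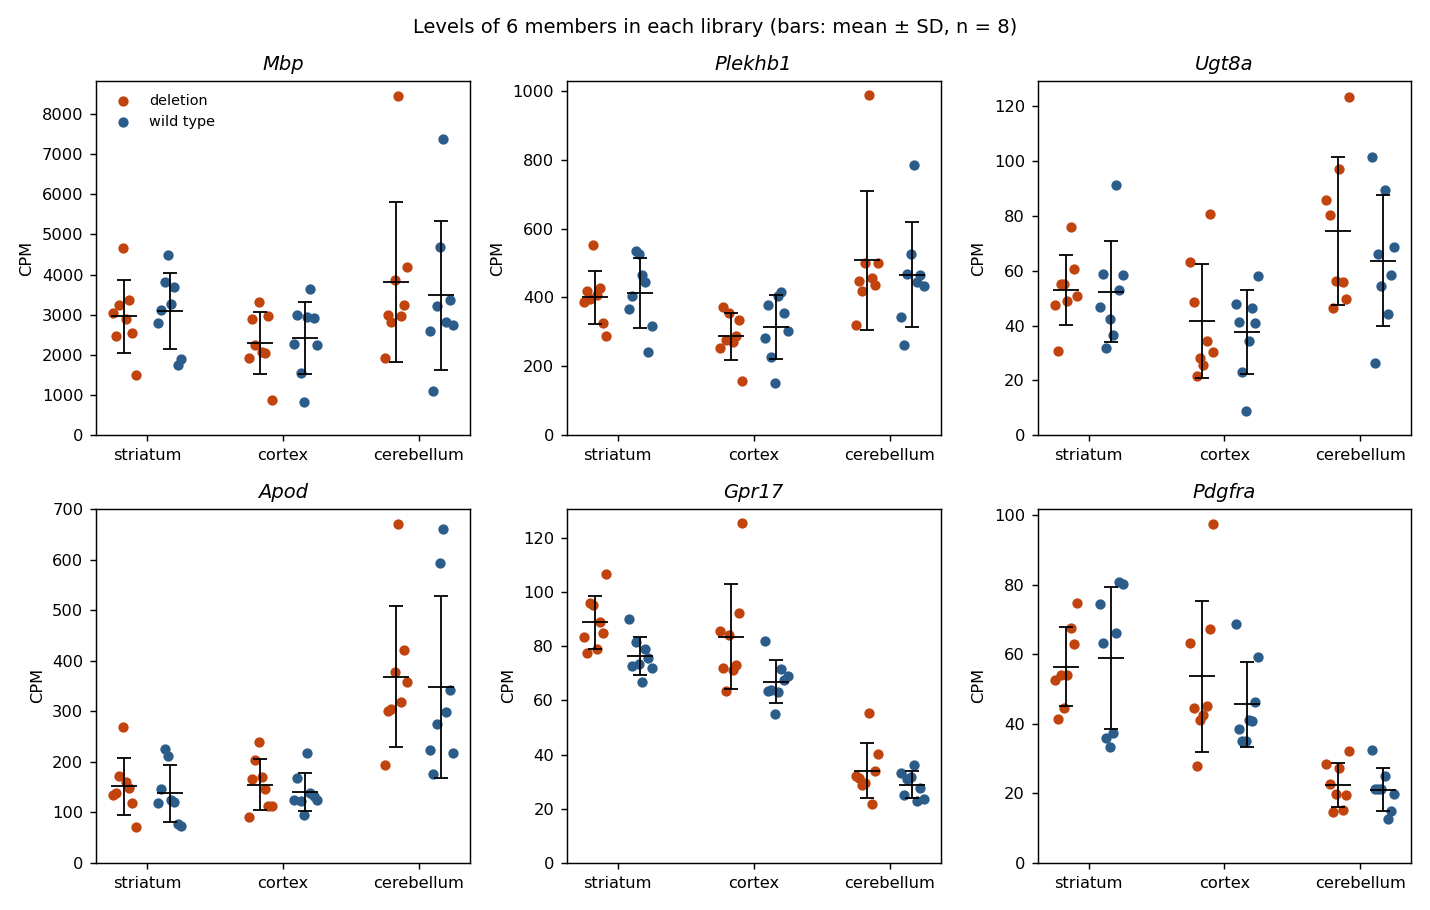
CPM of the member of highest mean CPM in 5 roles, Mbp, Plekhb1, Ugt8a, Apod and Gpr17, and of Pdgfra, in each of 48 libraries, with bars for the mean ± SD (n = 8), deletion left of wild type in each tissue. The genotypes overlap everywhere, while Gpr17 and Pdgfra are low in the cerebellum and Mbp and Apod are not.

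Values by library are given for the member of highest mean CPM in each role. CPM is not per length and gives no order of level between genes. Of the 10 membrane and adhesion proteins of the sheath this was Mbp. It was at 1491, 2961 and 4657 CPM (lowest, median and highest of 8 libraries) in deletion striatum, against 1737, 3191 and 4497 CPM in wild-type striatum. It was at 885, 2157 and 3317 CPM in deletion cortex, against 837, 2599 and 3629 CPM in wild-type cortex. It was at 1934, 3120 and 8439 CPM in deletion cerebellum, against 1089, 3026 and 7365 CPM in wild-type cerebellum. The lowest cortex libraries, D812 and W808, came from 1 animal of each genotype, as did the highest cerebellum libraries, D809 and W813, and the groups overlapped throughout. Relative to wild type, Mbp differed in deletion cortex by −0.06 ± 0.29 (log2 fold change ± SE, edgeR's quasi-likelihood test, Benjamini-Hochberg adjusted p = 0.978).

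Of the 6 cytoskeletal, scaffold and matrix partners of myelin, Plekhb1, a membrane-bound pleckstrin homology protein, had the highest mean CPM. It was at 289, 401 and 551 CPM in deletion striatum, against 241, 425 and 535 CPM in wild-type striatum. It was at 156, 281 and 373 CPM in deletion cortex, against 151, 329 and 416 CPM in wild-type cortex, and at 319, 452 and 987 CPM in deletion cerebellum, against 261, 455 and 783 CPM in wild-type cerebellum. The genotypes overlapped in all 3 tissues, and the cerebellum of D809 was about 2-fold above the next deletion library, which was at 499 CPM.

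Olig1, a basic helix-loop-helix factor, had the highest mean CPM of the 6 transcription factors. It was at 85.4, 134 and 201 CPM in deletion striatum, against 77.9, 118 and 175 CPM in wild-type striatum. It was at 62.9, 90.9 and 133 CPM in deletion cortex, against 74.8, 94.5 and 128 CPM in wild-type cortex, and at 37.3, 64.8 and 230 CPM in deletion cerebellum, against 32.0, 65.6 and 136 CPM in wild-type cerebellum. The medians of the genotypes lay close together in each tissue, and those of the cerebellum lay below those of the other two. Its partner Olig2 followed the same order, with medians of 32.97 CPM in deletion striatum and 30.8 CPM in wild-type striatum, 27.7 CPM in deletion cortex and 24.5 CPM in wild-type cortex, and 18.7 CPM in deletion cerebellum and 17.5 CPM in wild-type cerebellum.

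Ugt8a, the enzyme that makes galactosylceramide, the main galactolipid of myelin, had the highest mean CPM of the 3 lipid enzymes. It was at 30.8, 52.8 and 76.1 CPM in deletion striatum, against 31.8, 49.9 and 91.4 CPM in wild-type striatum. It was at 21.7, 32.3 and 80.6 CPM in deletion cortex, against 9.01, 41.2 and 58.2 CPM in wild-type cortex, and at 46.5, 68.3 and 123 CPM in deletion cerebellum, against 26.2, 62.3 and 102 CPM in wild-type cerebellum. The genotypes overlapped in each tissue. Fa2h, which adds the hydroxyl group to myelin fatty acids, and Gal3st1, which sulfates galactosylceramide to sulfatide, did not differ by a called amount between the genotypes.

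Apod, a lipocalin that carries lipids, had the highest mean CPM of the 4 metabolic enzymes and carriers. It was at 71.9, 143 and 269 CPM in deletion striatum, against 73.7, 123 and 226 CPM in wild-type striatum. It was at 90.3, 156 and 239 CPM in deletion cortex, against 95.5, 129 and 218 CPM in wild-type cortex, and at 194, 338 and 671 CPM in deletion cerebellum, against 176, 287 and 660 CPM in wild-type cerebellum. The genotypes overlapped, and the cerebellum was the high tissue in both. Trf, which encodes the iron carrier transferrin, was the most variable member: its highest library was 17.2-fold above its lowest over the 16 cortex libraries, 9.71-fold over the striatum libraries and 14.3-fold over the cerebellum libraries. Choroid plexus epithelium also makes transferrin, and its 10 markers summed to 11.9 to 1108 CPM in deletion cortex and 12.8 to 6565 CPM in wild-type cortex. Trf also moved with the length score, with an r of −0.75 in the cortex, −0.92 in the striatum and −0.88 in the cerebellum. The part of the markers and of the score in the spread of Trf was not tested. Car2, carbonic anhydrase 2, varied least in the cortex, 1.79-fold.

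Gpr17, the receptor of the stage between precursor and mature cell, had the highest mean CPM of the 4 receptors and surface proteins. It was at 77.5, 86.9 and 107 CPM in deletion striatum, against 66.8, 74.7 and 90.04 CPM in wild-type striatum. It was at 63.7, 78.7 and 126 CPM in deletion cortex, against 54.9, 65.7 and 81.8 CPM in wild-type cortex, and at 21.6, 31.7 and 55.4 CPM in deletion cerebellum, against 22.7, 29.3 and 36.1 CPM in wild-type cerebellum. The deletion median was the higher one in each tissue, and the groups overlapped in each. Gpr17 in the striatum varied least of all members in any tissue, with a highest library 1.59-fold above the lowest.

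The comparison of deletion with wild type asked whether these genes change with the deletion in a tissue. The test called 0 of the 33 members in the striatum, the cortex and the cerebellum, where 0.128%, 0.13% and 0.138% of all genes tested were called. At an unadjusted p under 0.05 it gave 1 member in the striatum, 1 in the cortex and 0 in the cerebellum, and DESeq2 also called 0 in each. In both tissues that member was Gpr17. It averaged 88.9 ± 9.82 CPM in deletion striatum and 76.4 ± 7.08 CPM in wild-type striatum (SD, n = 8 each), a log2 fold change of 0.21 ± 0.08 with an edgeR p of 0.0229 and an adjusted p of 1. It averaged 83.5 ± 19.4 CPM in deletion cortex and 66.9 ± 7.84 CPM in wild-type cortex, a log2 fold change of 0.31 ± 0.12 with an edgeR p of 0.0205 and an adjusted p of 0.965. In the cerebellum it averaged 34.1 ± 10.1 CPM in deletion and 28.9 ± 4.89 CPM in wild-type libraries, a log2 fold change of 0.22 ± 0.16 with an edgeR p of 0.191. The 3 tissues come from the same animals and are no independent repeats. For these comparisons the share of all genes at an unadjusted p under 0.05 is not given. The counts at that threshold are thus no result about the members.

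Gpr17 passed no adjusted threshold, and its log2 fold change moved with single animals. Leaving out 1 animal at a time gave 0.16 to 0.25 in the striatum, 0.21 to 0.38 in the cortex and 0.10 to 0.30 in the cerebellum, with the lowest value without D812 in the striatum and cortex and without D809 in the cerebellum. In females alone the log2 fold change of Gpr17 was 0.28 in the striatum, 0.41 in the cortex and 0.45 in the cerebellum, and in males alone it was 0.13, 0.22 and −0.00019. The Gpr17 gene lies on the minus strand at chr18:31942997-31949636 (GRCm38, GENCODE vM21) and overlaps Lims2 on the other strand, which had 27.9% of its counts. The sources used here do not give whether counting used strand. The log2 fold change of Lims2 was 0.02 ± 0.15 in the striatum, −0.12 ± 0.14 in the cortex and 0.08 ± 0.21 in the cerebellum.

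The members with the next smallest p-values were further from any threshold. In the striatum these were Anln, an actin-binding protein that scaffolds septins in the sheath, with 14.5, 25.1 and 30.8 CPM in deletion and 17.8, 26.5 and 44.1 CPM in wild-type libraries, and Olig2, with 26.3, 32.97 and 45.8 CPM in deletion and 21.2, 30.8 and 36.9 CPM in wild-type libraries. The log2 fold change was −0.23 ± 0.19 for Anln, with an edgeR p of 0.257, and 0.13 ± 0.13 for Olig2, with an edgeR p of 0.318. In the cortex they were Pdgfra, at 27.9, 44.8 and 97.5 CPM in deletion and 34.9, 40.9 and 68.8 CPM in wild-type libraries, and Cspg4, at 17.2, 24.1 and 34.7 CPM in deletion and 18.6, 22.3 and 27.8 CPM in wild-type libraries. In both, the deletion range reached further up, and D812 was its highest library. The log2 fold change was 0.21 ± 0.22 for Pdgfra, with an edgeR p of 0.34, and 0.11 ± 0.13 for Cspg4, with an edgeR p of 0.42.

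In the cerebellum they were Olig2, at 11.7, 18.7 and 59.9 CPM in deletion and 9.21, 17.5 and 38.4 CPM in wild-type libraries, and Aspa, which breaks down N-acetylaspartate to yield acetate for myelin lipids, at 20.1, 26.3 and 54.1 CPM in deletion and 9.69, 24.7 and 43.4 CPM in wild-type libraries. All groups overlapped. The log2 fold change was 0.29 ± 0.28 for Olig2, with an edgeR p of 0.315, and 0.23 ± 0.23 for Aspa, with an edgeR p of 0.33.

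As a group, the 33 members showed no common shift in the striatum or the cortex. The median log2 fold change was −0.04 in the striatum, with 11 members above 0, and −0.01 in the cortex, with 16 above 0, against −0.006 and 0.004 over all genes tested. In the cerebellum the median was 0.11, with 30 members above 0, against −0.005 over all genes. Without D810 the striatal median was −0.087, with 6 members above 0. Without the cerebellum library of D809 the cerebellar median was −0.06, with 9 members above 0. The sign of the cerebellar median thus rested on 1 library, the one with low cerebellar markers.

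The 95% intervals show what the data could still hold. In the striatum all 33 intervals lay within a 2-fold change either way, and 27 within 1.5-fold. In the cortex 32 lay within 2-fold and 13 within 1.5-fold, and in the cerebellum 32 and 10. Trf had the intervals that reached furthest, to −1.13 in the cortex and to 1.03 in the cerebellum on the log2 scale.

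**Figure D2:**
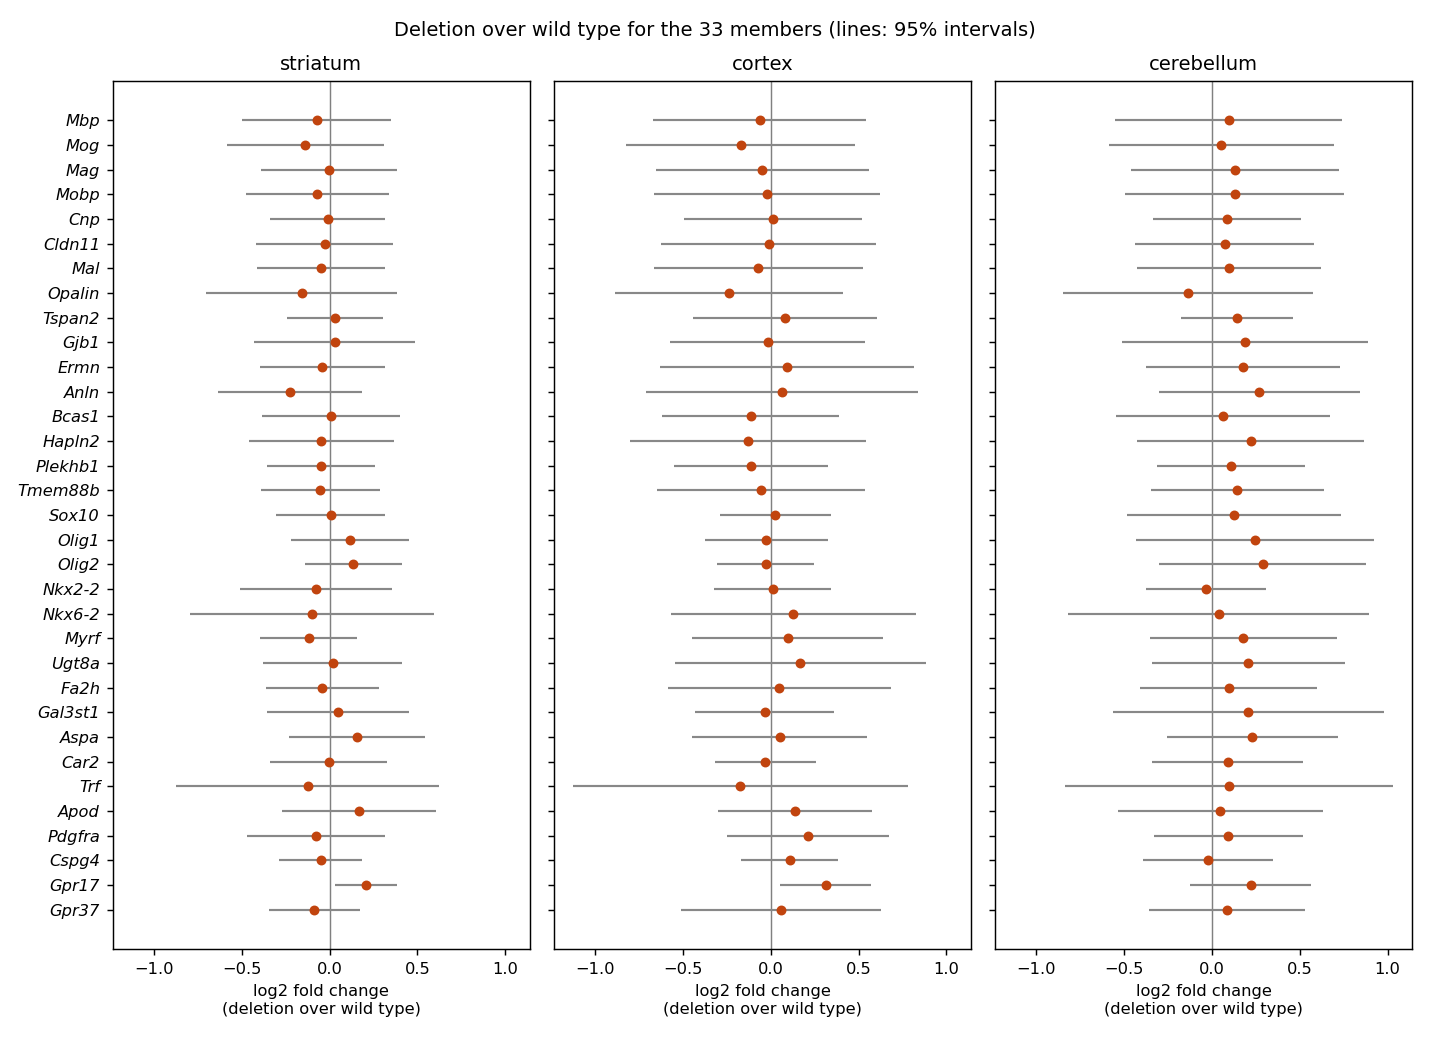
Log2 fold change of deletion over wild type with its 95% interval for each of 33 members, 1 panel per tissue. All intervals cross 0 except those of Gpr17 in the striatum and cortex, and Gpr17 passes no adjusted threshold.

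The genotype effect was also compared between tissues in 1 fit of the 48 libraries. For the differences striatum minus cortex, striatum minus cerebellum and cortex minus cerebellum, edgeR called 0 of the 33 members and 0% of 18531 genes. No member had an unadjusted p under 0.05, and DESeq2 and the fit with the animal as a block called 0 members too. The median differences over the members were −0.004, −0.17 and −0.17 on the log2 scale.

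Between striatum and cortex few members passed the test, and those that did were homeodomain factors of the lineage. In deletion animals edgeR called 1 member higher in the striatum, Nkx2-2, and 0 lower, where 9.16% of all genes were called higher and 9.4% lower. In wild-type animals it called 2 higher, Nkx2-2 and Nkx6-2, and 0 lower, where 9.95% were called higher and 8.67% lower, so the share of members called was below the background in both. With a fold of at least 2 also asked for, 0 members were called in deletion animals and 1 in wild-type animals, where 7.98% and 7.27% of all genes were. The median log2 fold change of the members was 0.36 in deletion and 0.40 in wild-type animals, with 32 of 33 above 0 in each and Apod at −0.05 in each. Without D810 the count in deletion animals was again 1, with a median of 0.34. Without W813 the count in wild-type animals was 3, with a median of 0.44. The share of all genes called is not given for these 2 runs.

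Nkx2-2, a homeodomain factor that acts in the step from precursor to myelinating cell, was at 4.60, 6.71 and 10.3 CPM in deletion striatum and at 2.69, 3.51 and 5.60 CPM in deletion cortex. It was at 4.49, 6.75 and 13.96 CPM in wild-type striatum and at 3.24, 3.53 and 5.17 CPM in wild-type cortex. Striatum and cortex ranges overlapped in both genotypes, and the striatum was higher in 8 of 8 deletion and 7 of 8 wild-type animals. EdgeR gave Nkx2-2 a log2 fold change of 0.84 ± 0.19 in deletion animals (edgeR, adjusted p = 0.0027) and 0.96 ± 0.20 in wild-type animals (edgeR, adjusted p = 0.0019). The gene, on the minus strand at chr2:147177546-147194243, overlaps 2 antisense transcripts, Nkx2-2os and 6430503K07Rik, with 12.7% and 17.3% of its counts. They were also higher in wild-type striatum than in wild-type cortex, by 0.96 ± 0.24 and 1.2 ± 0.33 on the log2 scale (edgeR, adjusted p = 0.00716 and 0.0128), so the value of Nkx2-2 is uncertain by as much as they share reads.

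Nkx6-2, a homeodomain factor of the mature oligodendrocyte, was at 9.84, 17.2 and 36.2 CPM in deletion striatum and at 3.504, 8.73 and 17.9 CPM in deletion cortex. It was at 8.30, 19.2 and 56.2 CPM in wild-type striatum and at 4.65, 9.57 and 11.8 CPM in wild-type cortex. The striatum of W807 held the highest value. The log2 fold change was 1.10 ± 0.40 in deletion animals (edgeR, adjusted p = 0.06) and 1.40 ± 0.40 in wild-type animals (edgeR, adjusted p = 0.017). Without W807 the wild-type value of Nkx6-2 was 0.99 with an adjusted p of 0.0952, and without W808 it was 1.24 with an adjusted p of 0.0607, so neither passed. Nkx6-2 overlaps Inpp5a on the other strand, whose counts were 3.43 times its own in the striatum, 6.99 times in the cortex and 29.5 times in the cerebellum, so the values of Nkx6-2 are uncertain. Striatum over cortex, Inpp5a was at 0.32 ± 0.16 in deletion and 0.17 ± 0.11 in wild-type animals, and neither passed. Myrf, the factor that switches on the myelin genes, came next in wild-type animals at 0.65 ± 0.24, and Hapln2, which links the matrix at the nodes of Ranvier, came next in deletion animals at 0.57 ± 0.31; neither passed. Without W813 in the striatum Myrf passed, at 0.71 (edgeR, adjusted p = 0.0449). The smallest values in deletion animals were Apod at −0.05 ± 0.24, Pdgfra at 0.07 ± 0.19 and Gpr17 at 0.09 ± 0.15, and in wild-type animals Apod at −0.05 ± 0.28, Car2 at 0.16 ± 0.17 and Gal3st1 at 0.19 ± 0.30.

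Against the cerebellum, the striatum had more RNA of Pdgfra, Cspg4 and Gpr17. In deletion animals edgeR called 3 members higher in the striatum, Gpr17, Cspg4 and Pdgfra, and 4 lower, Apod, Gjb1, Hapln2 and Anln, where 22.5% of all genes were called in each direction. In wild-type animals it called 5 higher, the same 3 with Olig1 and Olig2, and 1 lower, Apod, where 25.5% were called higher and 22.4% lower. The median log2 fold change of the members was −0.23 in deletion and 0.006 in wild-type animals. With a fold of at least 2 also asked for, 4 members were called in each genotype, where 20.9% of all genes were in deletion and 22.7% in wild-type animals. The count in deletion animals depended on D809: without its cerebellum library 12 members were called, 9 higher and 3 lower, and with the animal as a block 11 were called, 6 higher and 5 lower. Without the striatum library of D810 it was again 7, and without that of W813 the wild-type count was again 6. The share of all genes called in these runs is not given here, so a moved count is no result about the members. In bulk tissue, fewer cells of a type and less RNA per cell cannot be told apart.

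Pdgfra, which encodes the receptor for platelet-derived growth factor that drives precursor division, was at 41.5, 53.9 and 74.8 CPM in deletion striatum and at 14.7, 21.3 and 32.2 CPM in deletion cerebellum. It was at 33.4, 64.7 and 80.8 CPM in wild-type striatum and at 12.6, 21.3 and 32.5 CPM in wild-type cerebellum. The ranges did not overlap in either genotype. Striatum over cerebellum, it differed by a log2 fold change of 1.29 ± 0.20 in deletion animals and 1.49 ± 0.23 in wild-type animals. Cspg4, the NG2 proteoglycan, was at 23.4, 26.9 and 28.9 CPM in deletion striatum and at 6.70, 10.2 and 17.2 CPM in deletion cerebellum. It was at 20.3, 25.8 and 35.7 CPM in wild-type striatum and at 7.99, 9.70 and 13.9 CPM in wild-type cerebellum, again with no overlap. Its log2 fold change was 1.34 ± 0.15 in deletion animals and 1.40 ± 0.13 in wild-type animals, and that of Gpr17 was 1.37 ± 0.15 (2.59-fold) in deletion animals and 1.41 ± 0.10 (2.66-fold) in wild-type animals. All 3 genes were higher in the striatum in 8 of 8 animals of each genotype.

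Both Pdgfra and Cspg4 are also made by other cells, fibroblasts of the meninges in the case of Pdgfra and pericytes in that of Cspg4. The 9 meningeal fibroblast markers summed to 55.0 to 106 CPM in deletion striatum and 155 to 367 CPM in deletion cerebellum, and to 57.1 to 278 CPM in wild-type striatum and 153 to 545 CPM in wild-type cerebellum. The 6 pericyte markers summed to 130 to 240 CPM in deletion striatum and 218 to 321 CPM in deletion cerebellum, and to 128 to 197 CPM in wild-type striatum and 208 to 330 CPM in wild-type cerebellum. Both lists ran higher in the cerebellum, with ranges that overlapped for fibroblast markers in wild-type animals and for pericyte markers in deletion animals. The part of these cells in the levels of Pdgfra and Cspg4 was not tested.

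Apod was the member furthest the other way, at −1.32 ± 0.25 in deletion animals (edgeR, adjusted p = 0.00015) and −1.35 ± 0.28 in wild-type animals (edgeR, adjusted p = 0.00037), and it was lower in the striatum in 8 of 8 animals of each genotype. Trf came next in deletion animals at −1.10 ± 0.50, which did not pass, and Gjb1, the gap junction protein connexin 32, at −0.97 ± 0.30, which did. In wild-type animals Gjb1 was at −0.71 ± 0.31 and Trf at −0.65 ± 0.44, and neither passed. Apod is also made by fibroblasts, whose markers, given above, were likewise lower in the striatum; their part in this result was not tested.

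Against the cerebellum, the cortex had more RNA of Pdgfra, Cspg4 and Gpr17 and less of many mature genes. In deletion animals edgeR called 3 members higher in the cortex, where 23.6% of all genes were called higher, and 18 lower, where 24.8% were called lower. In wild-type animals it called 4 higher, where 24.7% were called higher, and 10 lower, where 24.2% were called lower. The median log2 fold change of the members was −0.60 in deletion and −0.45 in wild-type animals, against −0.05 and −0.04 over all genes tested. With a fold of at least 2 also asked for, 9 members were called in deletion and 8 in wild-type animals, where 21.9% and 22.8% of all genes were. The share of members called lower was above the background in deletion animals and near it in wild-type animals, where 4 were called lower without the cerebellum library of W813. Most of these members vary together across libraries, so their calls are not independent of each other.

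The 3 members called higher in both genotypes were Gpr17, at 1.29 ± 0.15 in deletion and 1.22 ± 0.10 in wild-type animals, Cspg4, at 1.23 ± 0.15 in deletion and 1.13 ± 0.13 in wild-type animals, and Pdgfra, at 1.22 ± 0.20 in deletion and 1.12 ± 0.22 in wild-type animals. Olig2 was called in wild-type animals at 0.55 ± 0.20 and was at 0.19 ± 0.23 in deletion animals. The members furthest below 0 in deletion animals were Trf at −1.51 ± 0.51, Hapln2 at −1.42 ± 0.32 and Gjb1 at −1.39 ± 0.30, and in wild-type animals Apod at −1.31 ± 0.28, Nkx2-2 at −1.17 ± 0.20 and Gjb1 at −1.13 ± 0.31. These 6 values were called. The deletion call of Trf and the wild-type call of Olig2 did not hold with each animal left out. Their highest adjusted p was 0.0511 and 0.106 (edgeR). Gjb1 was at 4.31, 13.6 and 15.9 CPM in deletion cortex and at 16.6, 26.1 and 84.4 CPM in deletion cerebellum, and the ranges did not overlap. In wild-type animals it was at 5.82, 14.05 and 17.1 CPM in the cortex and at 8.15, 24.5 and 61.9 CPM in the cerebellum, and they did.

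Of the transcription factors, only Nkx2-2 was called lower in the cortex than in the cerebellum. It was at 2.69, 3.51 and 5.60 CPM in deletion cortex and at 6.12, 7.72 and 14.1 CPM in deletion cerebellum, and at 3.24, 3.53 and 5.17 CPM in wild-type cortex and at 5.50, 8.83 and 10.8 CPM in wild-type cerebellum, with no overlap in either genotype. It was the lower one in the cortex in 8 of 8 animals of each genotype. In the order of its levels, cerebellum and striatum did not differ by a called amount and the cortex was below both. Olig1 and Olig2 had the cerebellum at the low end, and Sox10, a factor active in the whole lineage, was at −0.05 ± 0.23 in deletion and 0.09 ± 0.22 in wild-type animals for cortex over cerebellum, which edgeR did not call. Nkx6-2 and Myrf leaned as Nkx2-2 did in wild-type animals, from −0.76 to −0.30 and from −0.42 to −0.12 over the alternatives, none called. Nkx2-2os and 6430503K07Rik, which overlap Nkx2-2, were also called lower in the cortex. They were at −0.83 ± 0.19 and −1.30 ± 0.30 in deletion and −1.15 ± 0.24 and −1.48 ± 0.33 in wild-type animals.

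Members that encode neighbours in the same sheath did not all share 1 pattern. For cortex over cerebellum, Opalin, a sialylated membrane protein, was at 0.23 ± 0.32 in deletion and 0.43 ± 0.35 in wild-type animals, and Mal, a lipid-raft protein, at −0.01 ± 0.24 in deletion and 0.22 ± 0.27 in wild-type animals. Cldn11, the tight junction protein of the sheath, was at −0.23 ± 0.24 in deletion and −0.09 ± 0.27 in wild-type animals, and Tspan2, a tetraspanin, at −0.31 ± 0.17 in deletion and −0.22 ± 0.20 in wild-type animals. None of these 4 was called in either genotype. In deletion animals Mbp was called at −0.74 ± 0.28, Mag, an adhesion protein that faces the axon, at −0.74 ± 0.28, Mog, a protein of the outer surface, at −0.71 ± 0.29 and Cnp, which keeps cytoplasmic channels of the sheath open, at −0.66 ± 0.21. In wild-type animals these 4 were at −0.52 ± 0.30, −0.50 ± 0.28, −0.43 ± 0.31 and −0.53 ± 0.23, and none was called. Without D809 in any tissue, Mbp was at −0.45 (edgeR, adjusted p = 0.144), Mag at −0.44 (edgeR, adjusted p = 0.149) and Mog at −0.41 (edgeR, adjusted p = 0.225) in deletion animals, and none of these 3 passed. Cnp overlaps Dnajc7, which had 47.1% of its counts, so its level is uncertain.

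The partners of the sheath leaned the same way for cortex over cerebellum. Ermn, an actin-binding protein of late myelination, was called at −0.75 ± 0.25 in deletion animals and was at −0.63 ± 0.29 in wild-type animals, which did not pass. Tmem88b, a membrane protein of oligodendrocytes, was called at −0.61 ± 0.22 in deletion animals and was at −0.37 ± 0.25 in wild-type animals. Bcas1, which marks cells that have newly begun to myelinate, was at −0.48 ± 0.24 in deletion and −0.25 ± 0.28 in wild-type animals and passed in neither. Anln was called in both, at −1.05 ± 0.26 in deletion and −0.82 ± 0.32 in wild-type animals, and so was Plekhb1, at −0.83 ± 0.20 in deletion and −0.56 ± 0.21 in wild-type animals. Of the lipid enzymes, Ugt8a was called at −0.84 ± 0.26 in deletion and −0.78 ± 0.29 in wild-type animals and Fa2h at −0.78 ± 0.23 in deletion and −0.69 ± 0.27 in wild-type animals. The wild-type calls of Anln, Plekhb1, Ugt8a and Fa2h were lost without W807 and without W808. Gpr37, a receptor of maturing oligodendrocytes, was the one receptor that did not share the direction of Pdgfra, Cspg4 and Gpr17: it was called at −0.54 ± 0.20 in deletion animals and was at −0.48 ± 0.22 in wild-type animals. The deletion calls of Ermn, Tmem88b, Ugt8a and Gpr37 did not hold with each animal left out. Their highest adjusted p was 0.095, 0.161, 0.0643 and 0.189 (edgeR).

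The counts for cortex over cerebellum moved with single animals. In deletion animals they ran from 14 to 21 when 1 animal was left out, and were 17 without the cerebellum library of D809, 5 higher and 12 lower. In wild-type animals they ran from 8 without W807 or W808 to 17, and were 9 without the cerebellum library of W813, 5 higher and 4 lower. Shares of all genes called are not given for these runs, so the moved counts are no result about the members. Gpr17, Cspg4 and Pdgfra were called higher in the cortex without D809 or W813 too. Whether the genotypes differ in this pattern was tested above as the difference of the genotype effect, which called 0 members.

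**Figure D3:**
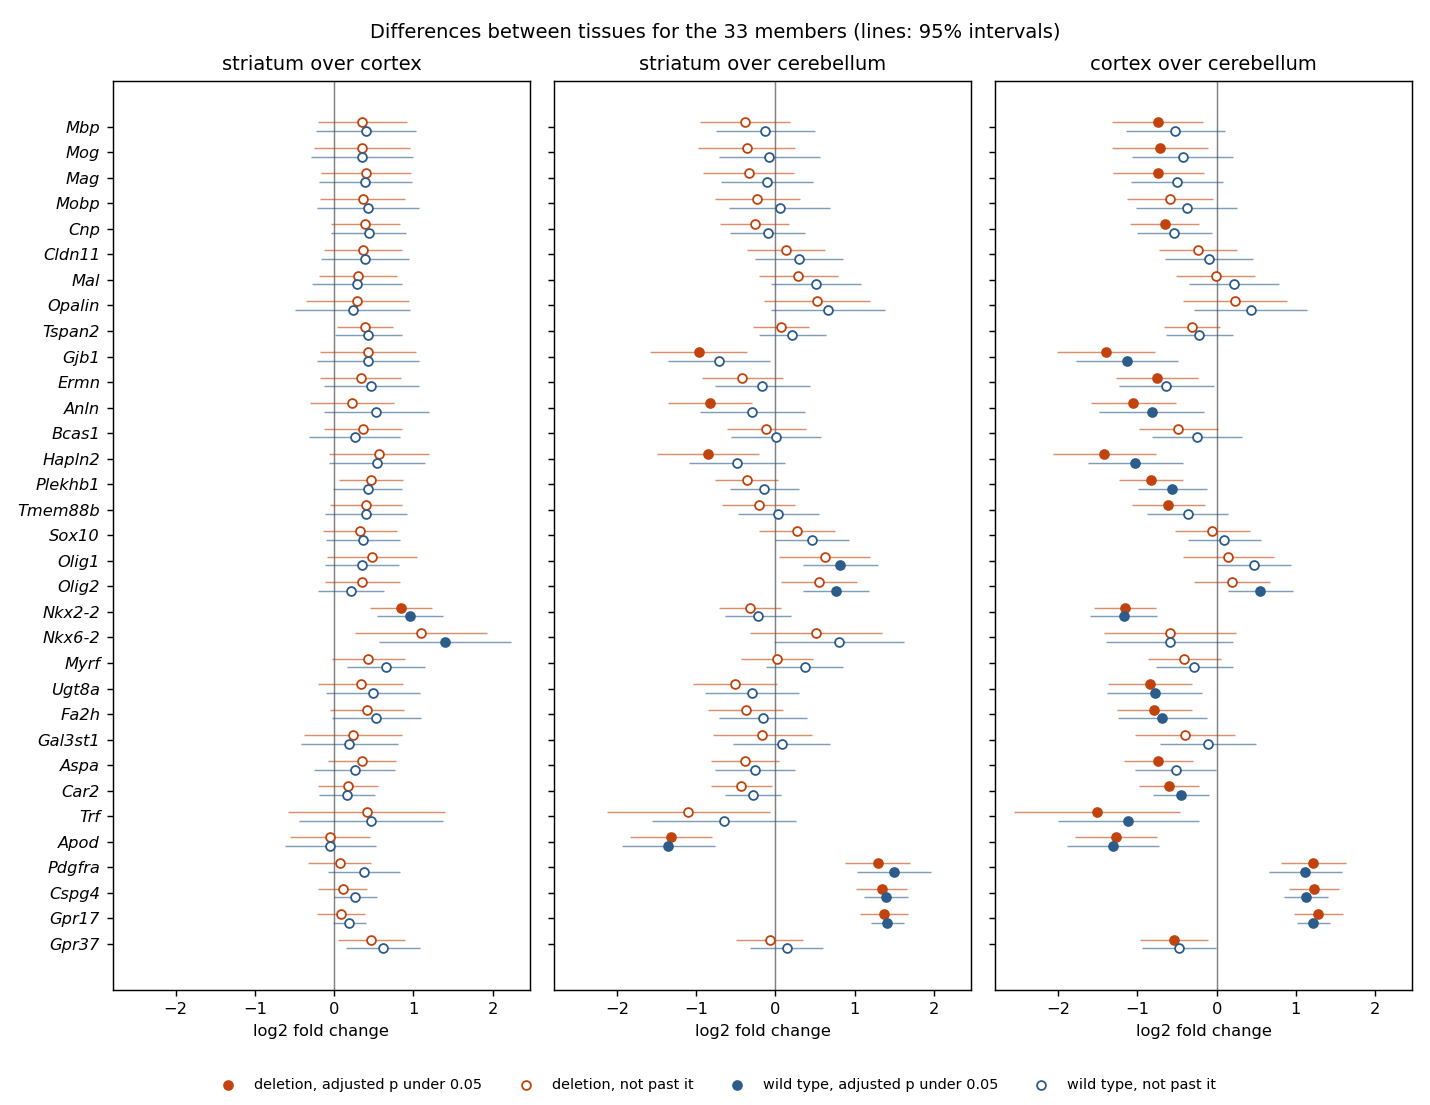
Log2 fold change with its 95% interval for each member in 3 region comparisons, deletion above wild type in each row, filled where the adjusted p is under 0.05. Pdgfra, Cspg4 and Gpr17 lie to the right of 0 against the cerebellum in both genotypes, and Apod to the left.

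Genes of the same pathway outside the 33 were described from 5 lists: 34 other myelin and mature oligodendrocyte genes, 12 other precursor genes, 11 other regulators, 8 other myelin sphingolipid genes and 12 signals and receptors. For deletion over wild type edgeR called 0 genes of each list in each tissue. At an unadjusted p under 0.05 there were 2 in the striatum, 0 in the cortex and 1 in the cerebellum. No share of all genes is given for that threshold, so these 3 counts are no result about the lists. The shares of all genes called, given above for each comparison and direction, hold for the counts of calls in these lists too. For cortex over cerebellum, where 23.6% of all genes were called higher and 24.8% lower in deletion and 24.7% and 24.2% in wild-type animals, the other myelin genes had 2 called higher and 23 lower in deletion animals and 2 higher and 13 lower in wild-type animals. The lowest was Klk6, a secreted protease, at −2.90 ± 0.42 in deletion and −3.25 ± 0.65 in wild-type animals. Sept4, a septin, was at −1.80 ± 0.20 in deletion and −1.66 ± 0.20 in wild-type animals. Tppp, a tubulin-binding protein, was higher, at 1.14 ± 0.16 in deletion and 1.2 ± 0.16 in wild-type animals.

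The precursor list was mixed for cortex over cerebellum, with 4 higher and 2 lower in deletion animals and 3 higher and 2 lower in wild-type animals. Pcdh15, a protocadherin, was higher at 1.55 ± 0.33 in deletion and 1.62 ± 0.32 in wild-type animals, and Matn4, a matrix protein, at 1.16 ± 0.18 in deletion and 1.59 ± 0.26 in wild-type animals. Cnksr3, a signalling scaffold, was lower, at −3.26 ± 0.23 in deletion and −3.45 ± 0.23 in wild-type animals. Of the other regulators 5 were higher and 4 lower in deletion animals and 4 higher and 5 lower in wild-type animals. They included Hes5, a Notch target, higher at 3.09 ± 0.49 in deletion and 3.54 ± 0.26 in wild-type animals, and Chd7, a chromatin remodeller, lower at −3.63 ± 0.26 in deletion and −3.97 ± 0.25 in wild-type animals. Granule neurons of the cerebellum are known to express Chd7, so in bulk tissue its level is not one of the lineage alone. The sphingolipid genes had 0 higher and 4 lower in deletion animals and 0 higher and 2 lower in wild-type animals. Of the 11 signals and receptors tested, 6 were higher and 1 lower in each genotype, with Lingo1, a receptor component that restrains differentiation and that neurons also express, highest at 2.90 ± 0.18 in deletion and 3.004 ± 0.26 in wild-type animals.

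For striatum over cerebellum, where 22.4% to 25.5% of all genes were called in a direction, the other myelin genes had 1 higher and 11 lower in deletion animals and 3 higher and 6 lower in wild-type animals. The precursor genes had 4 higher and 1 lower in deletion animals and 5 higher and 1 lower in wild-type animals, with Pcdh15 again furthest up at 1.63 ± 0.33 in deletion and 2.04 ± 0.32 in wild-type animals. For striatum over cortex, where 8.67% to 9.95% were, the other myelin genes had 1 higher and 1 lower in deletion animals and 0 higher and 1 lower in wild-type animals. Among precursor genes, Lhfpl3 was higher at 0.91 ± 0.18 in deletion and 0.86 ± 0.24 in wild-type animals. Of the signals and receptors 1 was higher and 3 lower in each genotype: Adgrg1, an adhesion receptor of precursors, was higher at 0.82 ± 0.17 in deletion and 0.86 ± 0.14 in wild-type animals, and Lingo1 was lower at −1.72 ± 0.17 in deletion and −1.43 ± 0.25 in wild-type animals.

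From library to library within a tissue, most members followed Mbp. Each member's log2 CPM was correlated with that of Mbp over the 16 libraries of a tissue, with permutation p-values adjusted over all genes tested. It passed and was positive for 23 of 32 members in the striatum, where 16.5% of all genes passed, for 18 in the cortex, where 0.563% did, and for 29 in the cerebellum, where 23.8% did. It passed and was negative for 1 member in the striatum and 0 in the other two, where 17.3%, 0.00593% and 24.5% of all genes were. The median Pearson r of the members was 0.88 in the striatum, 0.83 in the cortex and 0.95 in the cerebellum, against 0.009, −0.006 and 0.070 over all genes. An r above 0.9 was found for 14, 14 and 21 members, and for 0.238%, 0.243% and 0.948% of all genes. Region markers varied between the libraries of a tissue, as given above, so these values describe this set of samples. Mog followed Mbp most closely, with r of 0.98, 0.99 and 0.99 in the 3 tissues (permutation, adjusted p = 0.00313, 0.00422 and 0.000413). Members that did not follow it in the striatum included Ugt8a, with an r of −0.01, Anln, with 0.30, Tspan2, with 0.35, and Ermn, with 0.38. Gpr17 followed Mbp in the cerebellum, with an r of 0.65 (permutation, adjusted p = 0.0229) and a rho of 0.53 (permutation p of 0.0363). Its r was 0.41 without D809 and W806, the 2 libraries furthest from the median of Mbp. Without them r also fell for Tspan2, from 0.67 to 0.29, and for Anln, from 0.70 to 0.34. It fell for Nkx2-2 from 0.60 to 0.32, for Ermn from 0.70 to 0.43 and for Gpr37 from 0.77 to 0.48. Adjusted over the 96 correlations of members alone, 30 members passed in the cerebellum and were positive. Of these, 23 had an r above 0.5 without the 2 libraries.

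Pdgfra went against Mbp in the striatum. Its r was −0.67 (permutation, n = 16, adjusted p = 0.0207) and its Spearman rho −0.64, with a permutation p of 0.00973, and r was −0.58 without D812 and W815. Within females it was −0.61 and within males −0.55. Both genes moved with the length score there: its r was 0.95 with Pdgfra and −0.74 with Mbp, and the permutation p was 1e-05, the smallest possible, and 0.00107. The rho was 0.94 for Pdgfra and −0.68 for Mbp, with a permutation p of 1e-05 and 0.00453. Within females r was 0.93 for Pdgfra and −0.68 for Mbp, and within males 0.95 and −0.58. Without W807 and W808, the 2 libraries furthest out in the score, r was 0.94 for Pdgfra and −0.67 for Mbp. Ugt8a also moved with the score, with an r of 0.63 and a rho of 0.60 (permutation p of 0.00825 and 0.0155), and its r was 0.51 without W807 and W808. These were among 99 correlations of members with the score, adjusted together. In the striatum 2 members passed and were positive, Pdgfra and Ugt8a, and 18 passed and were negative. In the cortex 4 were positive and 6 negative, and in the cerebellum 0 and 18. The share of all genes that pass against the score was not computed, so these counts are no result about the members. The part of the score in the levels of Pdgfra, Mbp and Ugt8a was not tested. Between Pdgfra and Mbp, r was −0.22 in the cortex and 0.19 in the cerebellum, and neither passed. Cspg4 had an r of −0.42, −0.14 and 0.49 in the striatum, cortex and cerebellum, and none passed. For Gpr17 in the cortex r was −0.75 in females and 0.59 in males, and the pooled −0.14 is no summary of either. Without D812, a female, and W808, a male, the 2 libraries furthest from the median of Mbp, the pooled r was 0.12. A difference between the sexes was not tested.

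**Figure D4:**
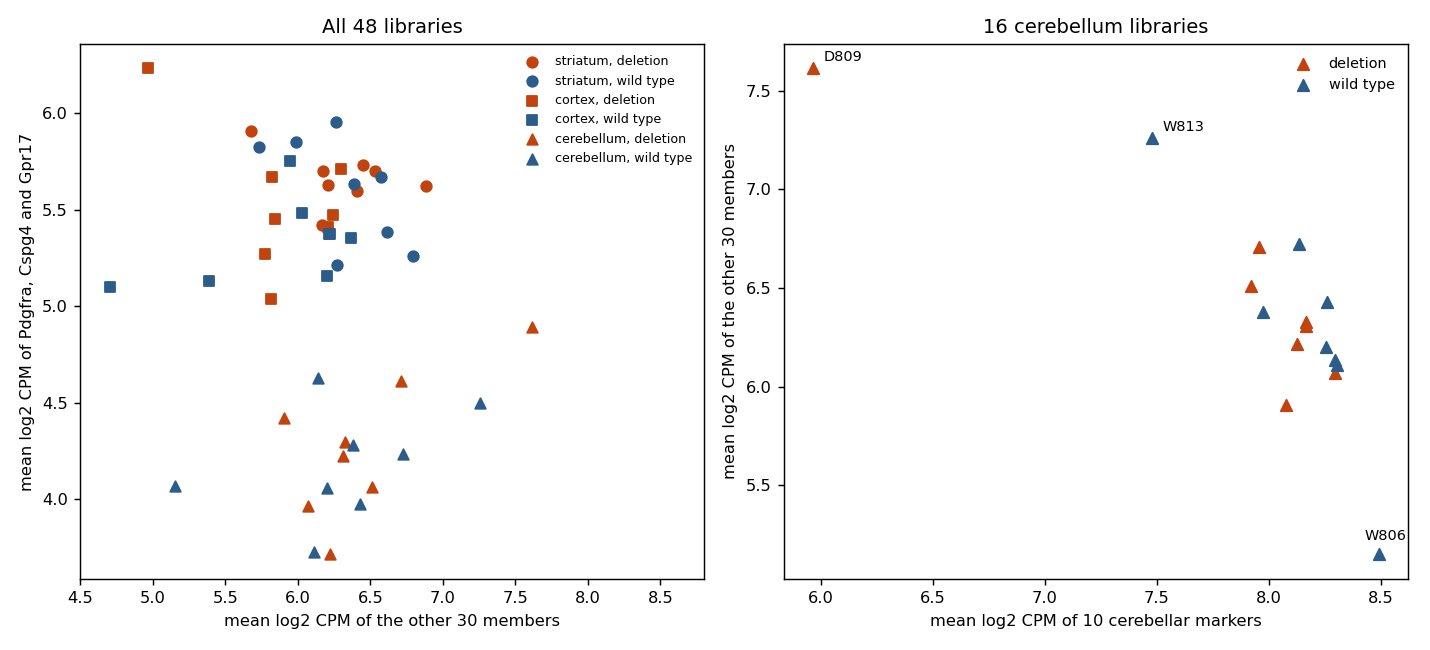
Left, the mean log2 CPM of the other 30 members on the x axis and of Pdgfra, Cspg4 and Gpr17 on the y axis for the 48 libraries. Right, the mean log2 CPM of 10 cerebellar markers on the x axis and of the 30 members on the y axis in the cerebellum, where D809, W813 and W806 are named; D809 has the lowest markers and the highest members.

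Single libraries held the extremes. The cerebellum of D809 was the highest of 16 for 28 of the 33 members, and that of W806 the lowest for 29. The cortex of W808 was the lowest for 20 and that of D812 for 10. The cortex of D812 also had the highest length score, 0.83. D812 was at the same time the highest cortex library for Pdgfra at 97.5 CPM, Cspg4 at 34.7 CPM and Gpr17 at 126 CPM, and it had the highest mean of meningeal fibroblast markers among deletion cortex libraries, 4.68 on the log2 CPM scale. In the striatum D804 was the highest for 14 members and D812 the lowest for 18. The SD of log2 CPM over the 16 libraries, as a median over members, was 0.20, 0.28 and 0.33 for Pdgfra, Cspg4 and Gpr17 in the striatum, cortex and cerebellum, and 0.39, 0.61 and 0.59 for the other 30.

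The cerebellum library of D809 also had the highest level of hindbrain Hox genes. The 15 genes, which are known from the hindbrain and spinal cord behind the cerebellum, summed to 246 CPM in D809, against 65.6 CPM in D804, 70.0 CPM in W807 and 13.0 CPM in W813. These Hox genes were chosen after the library was seen. Markers of Schwann cells, the myelinating cells of peripheral nerves, summed to 9.85 CPM in D809, to 4.82 to 40.7 CPM in deletion cerebellum, with D811 highest, and to 4.71 to 14.01 CPM in wild-type cerebellum. Of the 6 markers 1 was at 0 in every library. The part of such tissue in the high members of D809 was not tested.

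**Figure D5:**
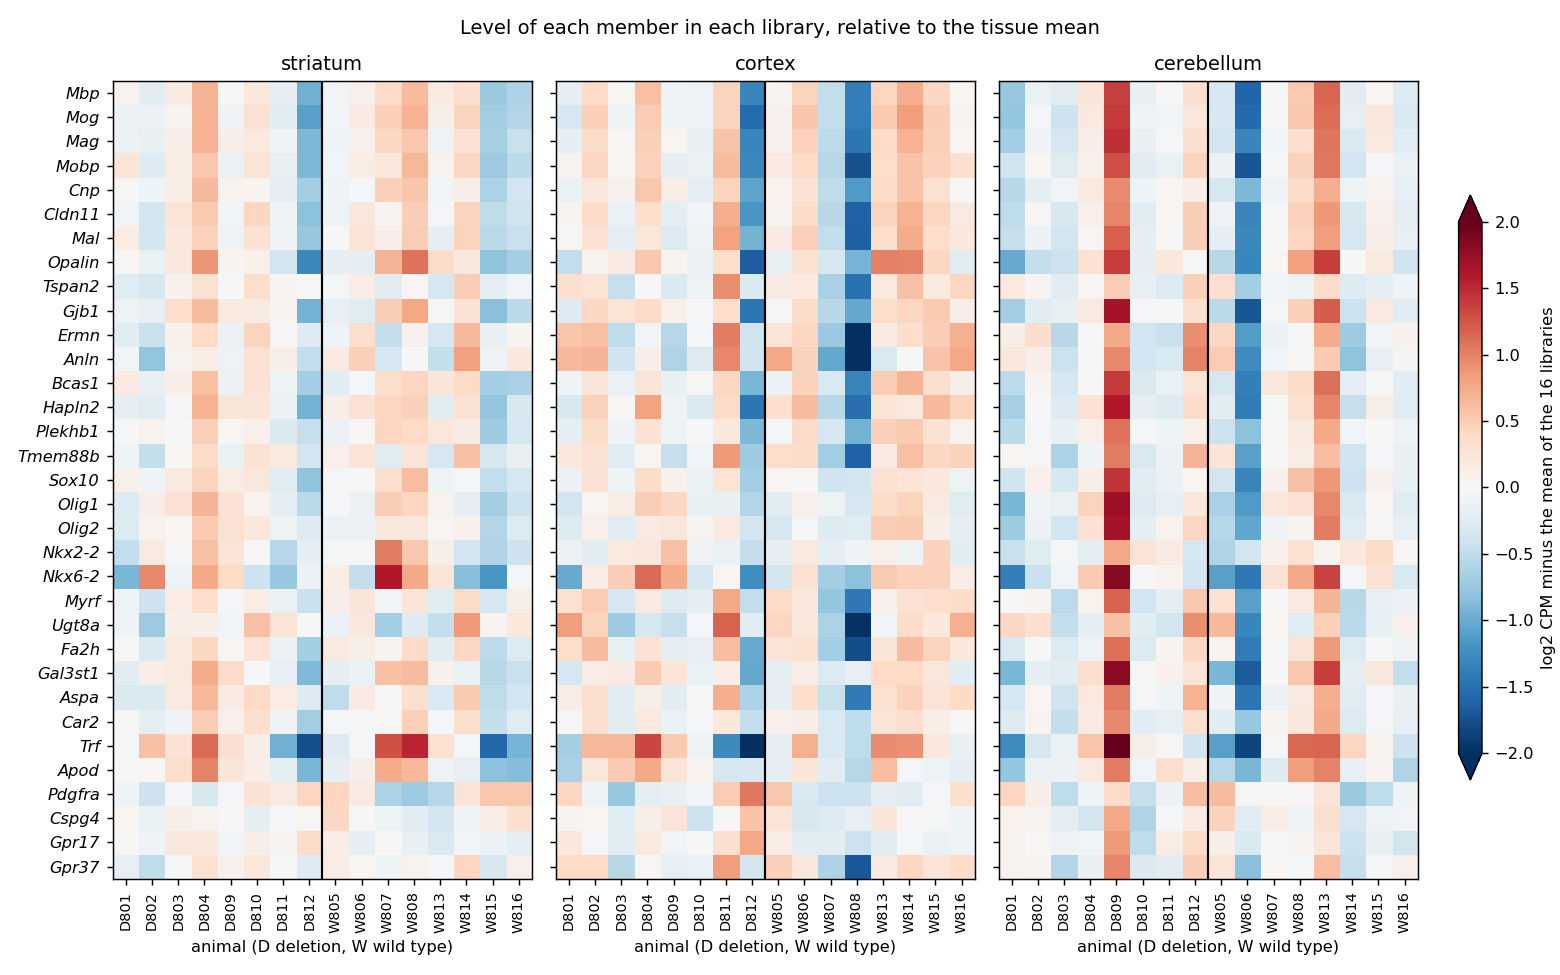
Log2 CPM of each member minus its mean over the 16 libraries of the tissue, deletion libraries left of the line and wild-type libraries right of it. Many columns lean to 1 colour over most members. Exceptions include the striatum of W807, where Ermn, Anln, Ugt8a and Tspan2 are below their mean and Mbp is above it, and Pdgfra is often on the other side from Mbp in the striatum.

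Between females and males, a comparison in which sex and the date in the labels cannot be told apart, edgeR called 0 members in the striatum, cortex and cerebellum, where 0.134%, 0.0356% and 0.042% of all genes were called. The members still leaned by tissue. In the striatum 6 of 33 were above 0 with a median of −0.29 on the log2 scale, and 9 were lower at an unadjusted p under 0.05. The length score there ran from −0.45 to 0.71 in females and from −0.78 to 0.24 in males, and its part in this was not tested. In the cortex 30 were above 0 with a median of 0.15, and 1 was at an unadjusted p under 0.05. In the cerebellum 32 were above 0 with a median of 0.45, and 6 were higher at an unadjusted p under 0.05. Without the cerebellum libraries of D809 and W813, which are both from females, 27 were above 0 with a median of 0.09. Many other genes also had an unadjusted p under 0.05: in the striatum Lims2, which is no member, had 0.0215 (edgeR, adjusted p = 0.108). The share of all genes under 0.05 is not given here, so the counts at that threshold are no result about the members.

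DESeq2 called 2 members lower in the female striatum, Trf at −1.05 ± 0.35 (adjusted p = 0.0336) and Apod at −0.66 ± 0.21 (adjusted p = 0.0284), and 0 in the other tissues. Without the striatum libraries of D810 and W813, edgeR called 3: Sox10 at −0.48, Trf at −1.31 and Apod at −0.78. Sox10 passed there at an unadjusted p of 0.00807 (edgeR, adjusted p = 0.0429), so many more genes passed than in the main fit. The same holds for DESeq2, where Trf passed at an unadjusted p of 0.00287. The share of all genes called in either run is not given here, so these counts are no result about the members.

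Whether the genotype effect differed between females and males was tested in each tissue. EdgeR called 0 members and 0% of all genes, and no member had an unadjusted p under 0.05. DESeq2 also called 0, with 4 members at an unadjusted p under 0.05 in the cortex. The share of all genes at that p is not given for DESeq2, so the 4 are no result about the members. In the cortex the median difference, female minus male, was −0.70 on the log2 scale with 31 of 33 below 0, against −0.001 over all genes. In females alone 3 members were above 0 with a median log2 fold change of −0.34 for deletion over wild type, and in males alone all 33 were above 0 with a median of 0.37. The cortex of D812 is from a female and that of W808 from a male, the lowest of their genotype, and without these 2 libraries the median difference was −0.34. In the striatum the median difference was 0.10 and in the cerebellum 0.26.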

How the data were processed

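Messenger RNA of 48 libraries was sequenced with a stranded kit on Illumina instruments, per the labels. The table that the authors deposited holds raw read counts per gene, with no normalization. The submitters' processing notes name FastQC (0.10.1), STAR (2.4.2a), Picard, SAMtools and the builds GRCm38 and mm8, the builds without a role. The counter, its annotation and its use of strand are unknown here. Of 47161 rows, 92 are spike-in controls (0.0614 to 1.09% of a library's counts) and were left out. Symbols, coordinates and exon lengths came from GENCODE vM21 (46574 of 47069 identifiers matched), and promoters from RefSeq. Overlapping and antisense genes are uncertain.

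Genotypes were compared within each tissue, with sex as a covariate, by edgeR 4.0.16 (robust quasi-likelihood test, TMM scaling, edgeR's low-count filter, R 4.3.3, limma 3.58.1). Regions were compared within each genotype, with sex, in a fit of the 24 libraries of that genotype, and differences of the genotype effect in 1 fit of all 48. The Benjamini-Hochberg adjustment ran over all genes tested, and an adjusted p under 0.05 was a call. For regions a second rule also asked for a fold of at least 2. Intervals are 95% and use the fit's t distribution. CPM values are on TMM library sizes, and log2 CPM uses a prior count of 2. Correlations used 100000 permutations, and those with Mbp were adjusted over all genes. All tests were 2-sided.

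The members and gene lists were chosen with earlier results of these data known. All 33 members belong to the report. Values by library were given for the member of highest mean CPM in each role and for the 3 members of smallest p in each genotype comparison. In region comparisons the 3 members furthest up and the 3 furthest down were named, and other genes were named up to 3 per list and direction. Members described beyond that were chosen after their values were seen. Alternatives were DESeq2 1.42.0, RLE scaling, no low-count filter, no sex term, a marker covariate, 1 fit of all libraries, each sex alone, the animal as a block and leaving out each animal. Leaving out named libraries was added after the data were seen. The animal numbers in the labels pair the tissues. Over genes, deviations of libraries from the same animal correlated at a median of 0.435 for striatum and cortex, 0.267 for striatum and cerebellum and 0.514 for cortex and cerebellum, against −0.078, −0.043 and −0.006 for different animals. The edgeR steps were tested on simulated data. No molecular identifiers are mentioned, so reads copied by PCR may not be independent.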

Additional observations from a re-analysis of the deposited data

Results flagged for a closer look

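Within each tissue and genotype, the highest and the lowest library of each member were set against the other 7 by Dixon's criterion. Of 198 groups 19 held a library that lay apart (9.6%), where chance gives about 1 in 20, and members that move together are not separate cases.

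The cortex of deletion animal D812 lay below the other deletion cortices for 10 members: Mbp at 885 CPM, Mog at 27.7 CPM, Mag at 83.9 CPM, Mobp at 288 CPM, Cnp at 166 CPM, Opalin at 10.1 CPM, Gjb1 at 4.31 CPM, Bcas1 at 79.7 CPM, Plekhb1 at 156 CPM and Sox10 at 26.7 CPM. The next lowest deletion cortex had 1913 CPM of Mbp and 64.0 CPM of Mog.

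The cerebellum of deletion animal D809 lay above the other deletion cerebella for 8 members: Mog at 308 CPM, Mag at 855 CPM, Gjb1 at 84.4 CPM, Bcas1 at 486 CPM, Hapln2 at 108 CPM, Plekhb1 at 987 CPM, Sox10 at 106 CPM and Gal3st1 at 51 CPM. The next highest had 42.5 CPM of Sox10 and 18.2 CPM of Gal3st1. The cerebellum of wild-type animal W806 lay below the other wild-type cerebella for Aspa, at 9.69 CPM.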

How the results depend on the processing

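Deletion over wild type called 0 members in every tissue under each alternative run, including each animal left out (0 to 0). For striatum over cortex the count was 1 in deletion animals, 2 with the animal as a block and 2 by DESeq2, and 1 to 2 with an animal left out; in wild-type animals it was 2, 4 by DESeq2 and 1 to 3 with an animal left out (1 without W807 or W808). For striatum over cerebellum it was 7 in deletion animals, 11 with the animal as a block, 12 without the cerebellum library of D809, and 6 to 11 with an animal left out; in wild-type animals it was 6, and 6 to 9 with an animal left out. For cortex over cerebellum it was 21 in deletion animals and 14 to 21 with an animal left out; in wild-type animals it was 14, 9 without the cerebellum library of W813, and 8 to 17 with an animal left out. The block moved no other count by over 1.5 times. For female over male in the striatum it was 0, 2 by DESeq2 and 3 without the libraries of D810 and W813. The cause of these shifts was not tested. Shares of all genes called in the alternative runs are not given here, so the shifts are no result about the members.

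Of 72 log2 fold changes of single members followed through the alternatives, these turned sign. Gpr17 in the cerebellum was −0.00019 in males alone. For striatum over cortex with an animal left out, Apod in wild-type animals ran from −0.21 to 0.051 (above 0 without W813, W815 or W816), Apod in deletion animals from −0.11 to 0.0025 (above 0 without D812), and Pdgfra in deletion animals from −0.029 to 0.17 (below 0 without D803). Of the other values for single members, 978 kept their direction and side of the threshold, 73 lost a call and 12 gained one. Over all 33 members, 2 to 10 turned sign in a region comparison, between −0.34 and 0.37, and 0 of them had been called.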
